A study of Homo sapiens with 10 samples.

Results

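The levels of 10 genes of the tripartite motif (TRIM) family and of the PML nuclear body were measured 6 days after a pulse of doxorubicin (DOX) in HCT-116, a long-established cell line from a human colon carcinoma. The 10 genes were TRIM5, TRIM8, TRIM14, TRIM21, TRIM22, TRIM25, TRIM38, PML, SP100 and SP110. They were picked by symbol from the 32738 genes of the count tables, and every one was found there. DOX cells had received 200 nM of the drug for 24 h, were washed and recovered for 6 d, and untreated cells had received none. The genotype label reads wild type for both groups. The growth protocol, whose text is shared across samples, also names degron-tagged HCT-116 lines and mouse cells, and nothing in it describes an untagged HCT-116 line separately. The methods of the study name HCT-116 cells from the American Type Culture Collection and no tagged line. Single-cell RNA was read from 3′ ends in 2 DOX libraries and 2 untreated libraries, and each molecule was counted once through its unique molecular identifier (UMI).

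TRIM proteins share a RING finger, B-boxes and a coiled coil, and most of them work as ubiquitin or SUMO ligases. Many are induced by interferon and act on viruses directly or on the sensors that detect foreign nucleic acids. PML, itself a TRIM protein, builds the shell of nuclear bodies in which SP100 and many SUMO-modified proteins gather, and these bodies take part in antiviral defence, the p53 response and senescence. DOX is a topoisomerase poison that breaks DNA, and arrest through p53 and its target CDKN1A is the textbook answer of such cells to it.

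Levels were taken from droplet barcodes with at least 20000 UMIs of which less than 8% came from mitochondrial genes. This left 1307 and 1080 barcodes in the DOX libraries, against 3572 and 2137 in the untreated libraries, and between 102333220 and 291488794 UMIs per library. The floor alone left 1886 and 1731 of the 8000 barcodes forced in each DOX library, against 3967 and 2310 in the untreated libraries. Median depth was 72676 and 84830 UMIs per barcode in DOX, against 72792 and 81168 in untreated libraries. Levels are given as CPM, the UMIs of a gene per 1000000 UMIs kept in the library. Colon epithelial markers summed to 6320 and 5970 CPM in DOX, against 4010 and 3620 in untreated libraries, with 8 of 10 above 1 CPM in every library. The keratins KRT8, KRT18 and KRT19 made up most of this sum and were higher in DOX, while EPCAM (299 and 312, against 376 and 324) and CDX2 (10.3 and 9.98, against 11.9 and 11.5) were lower. Leukocyte markers summed to 2.51 and 2.65 in DOX, against 2.08 and 2.04. Only CORO1A of these 10 was above 1 CPM in any library, and PTPRC (0.366 and 0.137, against 0.0103 and 0.0251) and LYZ (0.51 and 0.567, against 0.0926 and 0.0402) were rare but higher in DOX, and the part of other cells in the results was not tested. Fibroblast markers summed to 4.44 and 4.65, against 2.83 and 2.88, and endothelial markers to 0.992 and 1.45, against 0.326 and 0.512. The arrest gene CDKN1A was at 281 and 240 CPM in DOX, against 29.1 and 29.3 in untreated libraries, and the proliferation gene MKI67 at 175 and 186, against 252 and 293. Whether the 2 libraries of a condition are separate cultures is stated neither in the labels nor in the methods. All p-values therefore measure only the spread between these libraries, which may be technical.

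Promoter sequence was looked up in RefSeq (GRCh38.p14), as 250 bases before and 50 bases after each start site, and 7 of the 10 genes had an entry. Those of TRIM8, TRIM22 and PML are not shown. The motifs searched, on both strands, were of 3 kinds. The first was the core of the interferon-stimulated response element (ISRE), GAAANNGAAA, found in promoters of many interferon-induced genes. The second was the gamma-activated site (GAS), TTCNNNGAA, an element of the response to interferon gamma. The third was the p53 decamer. Overlapping ISRE cores were joined, and matches of different motifs were counted separately. The 7 genes had 9 promoters in the table, since a gene can have several starts. The ISRE core was found in 3 of these 9, each of a different gene, and in 3.57% of all 35116 promoters. Whether these matches bear on the levels of the genes was not tested. The runs that hold the core are shown, with the core in capitals.

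TRIM14: gctcccaaggGAAACCGAAAcctcggccgt
TRIM21: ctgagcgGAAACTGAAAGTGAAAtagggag
TRIM5: ctcagggcagGAAAGTGAAAgataaactat

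The TRIM14 core lay 26 bases before the start site and read on the strand opposite to the gene (GRCh37, chr9:100881511-100881540, just outside the annotated gene). TRIM21 held 2 overlapping cores on its own strand, 17 bases after the start site, in an untranslated part of an exon (chr11:4414893-4414922, minus strand). The TRIM5 core lay 27 bases before the RefSeq start on the opposite strand, where GENCODE annotates an untranslated exon of a longer TRIM5 transcript (chr11:5706312-5706341, plus strand). A GAS match was found in 1 of the 9 promoters, of SP110, against 7.66% of all promoters, and is shown here with the motif in capitals.

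SP110: cacttttcttTTCTCGGAAgcccggcccc

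This match lay 38 bases before the start site (chr2:231084719-231084747, minus strand), again in an untranslated exon of a longer transcript. A p53 decamer was found in 1 of the 9, of TRIM21, at the start site, against 6.63% of all promoters. SP100, TRIM25 and TRIM38 had none of these letters in the windows searched.

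All 10 genes had higher CPM in both DOX libraries than in both untreated libraries, and all 10 rose in the test. By edgeR's quasi-likelihood test on the UMIs summed per library, 10 of 10 genes passed an adjusted p of 0.05 as higher in DOX, whereas 28.2% of the 21563 genes tested did. None of the 10 fell, at an unadjusted p of 0.05 or by DESeq2 either, while 26.4% of all genes fell. The median log2 fold change of the 10 genes was 1.01, beside 0.045 over all genes tested. Both DOX libraries were above both untreated libraries for 53.9% of all genes and below them for 23.3%, so the separation of the libraries alone is common in these data. With 2 libraries against 2, an exact permutation test of a single gene cannot give a two-sided p below 0.33. In sums over barcodes, more cells with a transcript and more transcripts per cell cannot be told apart. The shares of barcodes given further on also depend on the mean UMIs per barcode, so they do not separate them either.

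**Figure D1:**
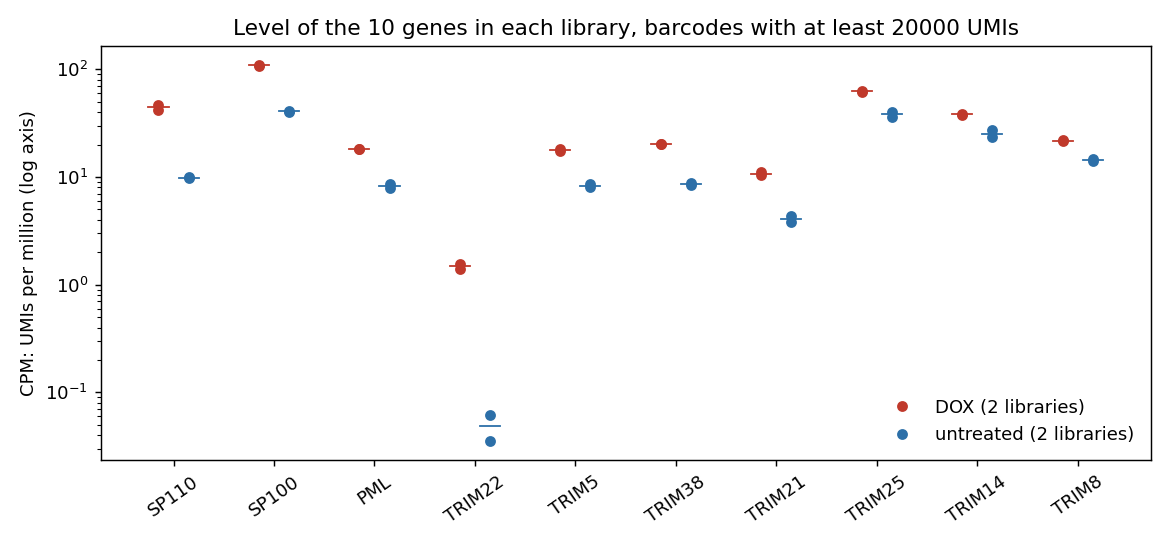
Level of each of the 10 genes in CPM on a log axis, with a point for each library (DOX left of untreated) and a line at the mean of 2 libraries. For every gene the 2 DOX points lie above the 2 untreated points, from SP100 at 110 and 108 in DOX, against 39.9 and 41.4, to TRIM22 at 1.41 and 1.55 in DOX, against 0.0618 and 0.0352.

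Among the genes of the nuclear body, SP110 changed most. SP110, an interferon-inducible paralog of SP100 that is known as a host factor in intracellular infection, had 46.8 and 42.4 CPM in DOX libraries, against 9.85 and 9.95 in untreated libraries. The libraries of a condition were close to each other and the conditions did not overlap. The log2 fold change was 2.00 (SE 0.0726, adjusted p = 4.3e-07). SP100, one of the resident proteins by which the bodies are recognised, had 110 and 108 CPM in DOX libraries, against 39.9 and 41.4 in untreated libraries, again without overlap. It rose by 1.26 on the log2 scale (SE 0.0592, adjusted p = 1.66e-06). PML, the scaffold of the bodies, had 18.1 and 18.3 CPM in DOX libraries, against 7.97 and 8.60 in untreated libraries. It rose by 0.97 on the log2 scale (SE 0.0596, adjusted p = 6.52e-06), less than SP110. SP100 lies on chromosome 2 (GRCh37, 231280657 to 231410321, plus strand), and SP110 lies on the same chromosome on the minus strand (231029902 to 231090444), where it overlaps SP140 on the opposite strand. SP140 had under 1 CPM in every library. PML lies on chromosome 15 (74287014 to 74340168, plus strand).

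TRIM22 had the widest fold change of the 10 genes and by far the fewest molecules. TRIM22, which restricts transcription of retroviruses and is known as a target of both interferon and p53, had 146 and 159 UMIs in DOX libraries, against 18 and 7 in untreated libraries. This equals 1.41 and 1.55 CPM in DOX, against 0.0618 and 0.0352. The fitted log2 fold change was 4.68 (SE 0.279, 95% interval 4.04 to 5.31, adjusted p = 5.62e-06). The UMIs were not spread evenly over the DOX barcodes. In DOX libraries 98 and 116 barcodes held a TRIM22 UMI and a single barcode held up to 10 and 7 of them, against 18 and 7 barcodes in untreated libraries, each with 1 UMI. TRIM22 (chromosome 11, 5710840 to 5758319, plus strand) lies within the annotated span of TRIM5 on the opposite strand (5684425 to 5959849), as do several olfactory receptor genes, and the sources used here do not state how strand was treated in counting.

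TRIM5 and TRIM38 rose by amounts close to that of PML, and TRIM21 by an amount close to that of SP100. TRIM5, which recognises the capsid of incoming retroviruses, had 18.1 and 17.6 CPM in DOX libraries, against 8.06 and 8.61 in untreated libraries. The DOX levels lay above both untreated levels, and the log2 fold change was 0.93 (SE 0.0611, adjusted p = 9.01e-06). TRIM21, a cytosolic receptor for antibody that marks antibody-bound virus for degradation, had 11.1 and 10.4 CPM in DOX libraries, against 3.78 and 4.37 in untreated libraries. The 2 groups were apart here too, and TRIM21 rose by 1.23 on the log2 scale (SE 0.0784, adjusted p = 7.82e-06). TRIM38, which acts as a SUMO ligase for cGAS and as a brake on NF-kB signalling, had 20.5 and 20.3 CPM in DOX libraries, against 8.53 and 8.88 in untreated libraries. Its libraries were the most alike within a condition of these 3 genes, and it rose by 1.06 (SE 0.0599, adjusted p = 4.36e-06). TRIM21 lies on chromosome 11 (4406127 to 4414932, minus strand) and TRIM38 on chromosome 6 (25963030 to 25991459, plus strand).

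TRIM25, TRIM14 and TRIM8 changed least. TRIM25, the ligase best known for adding ubiquitin chains to RIG-I, had 62.3 and 62.4 CPM in DOX libraries, against 36.4 and 40.1 in untreated libraries. The untreated libraries differed more than the DOX libraries but stayed below them, and the log2 fold change was 0.54 (SE 0.0559, adjusted p = 8.34e-05). TRIM14, an adaptor at the mitochondrial protein MAVS that lacks a RING finger, had 38.2 and 38.1 CPM in DOX libraries, against 23.6 and 27.1 in untreated libraries. The fitted change was 0.43 on the log2 scale (SE 0.0605, adjusted p = 0.000426). TRIM8, a ligase known to stabilise p53 and to activate NF-kB signalling, had 21.4 and 21.9 CPM in DOX libraries, against 14.2 and 14.9 in untreated libraries, and it rose by 0.41 (SE 0.0575, adjusted p = 0.0004). TRIM8 lies on chromosome 10 (104402260 to 104418075, plus strand), TRIM14 on chromosome 9 (100831557 to 100881504, minus strand) and TRIM25 on chromosome 17 (54913748 to 54991441, minus strand). TRIM25 overlaps DGKE on the opposite strand and C17orf67 on the same strand, and TRIM14 overlaps NANS on the opposite strand. The part of these neighbours in the counts was not tested.

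The rest of the TRIM family did not move in one direction. Of 58 other TRIM genes in the tables, 45 had enough UMIs to be tested, 12 of them rose and 9 fell, with a median log2 fold change of 0.089, beside 28.2% of all genes higher and 26.4% lower. The 5 with the smallest adjusted p were TRIM2, TRIM28, TRIM29, TRIM71 and TRIM37. TRIM2, a neuronal ubiquitin ligase, had 46.9 and 49.6 CPM in DOX, against 16.6 and 19.0 in untreated libraries, and rose by 1.27 (adjusted p = 2.08e-06). TRIM29, which is found in epithelia, had 0.520 and 0.557 CPM in DOX, against 0.0652 and 0.0803, and rose by 2.72 (adjusted p = 9.1e-05). TRIM71, a gene of early development, was also rare and rose by 1.94 (adjusted p = 0.000405). TRIM28, the corepressor that silences retroelements together with KRAB zinc finger proteins, fell. It had 211 and 200 CPM in DOX, against 307 and 325 in untreated libraries, and its log2 fold change was -0.79 (adjusted p = 3.68e-05). TRIM37, a ligase of centrosome biology, had a log2 fold change of -0.42 (adjusted p = 0.000554).

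The partners of PML in its nuclear bodies mostly went the other way from PML itself. Of 21 genes for proteins that build, modify or gather in PML bodies, 2 rose and 14 fell, and their median log2 fold change was -0.39, where 28.2% of all genes rose and 26.4% fell. Both that rose are paralogs of SP100, and whether reads of the 3 genes were told apart was not tested. SP140L had 28.3 and 28.4 CPM in DOX, against 16.5 and 17.0 in untreated libraries (log2 fold change 0.59, adjusted p = 6.19e-05), and SP140 had 0.973 and 0.928, against 0.309 and 0.352 (1.36, adjusted p = 0.000411). BLM, the helicase that is mutated in Bloom syndrome and sits in these bodies, had 33.1 and 36.9 CPM in DOX, against 49.2 and 53.2 in untreated libraries. Its log2 fold change was -0.72 (adjusted p = 4.11e-05). USP7, a ubiquitin protease of MDM2 and p53, had 79.3 and 82.0, against 101 and 112, a log2 fold change of -0.57 (adjusted p = 9.07e-05).

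The sensors and adaptors on which the TRIM proteins act were divided. Of 21 genes of RIG-I and cGAS signalling, 10 rose and 5 fell, with a median log2 fold change of 0.14, against the same shares of all genes. The 5 that fell, with their log2 fold changes, were TBK1 (-0.435), TAB1 (-0.322), NFKB1 (-0.216), MAP3K7 (-0.183) and IRF3 (-0.181). The RNA sensor DDX58, also called RIG-I and the substrate of TRIM25, had 57.8 and 57.9 CPM in DOX, against 9.47 and 9.94 in untreated libraries, and rose by 2.41 (adjusted p = 4.76e-08). The related sensor IFIH1 had 25.3 and 24.8, against 3.37 and 3.27, and rose by 2.74 (adjusted p = 6.41e-08). The factor IRF7 had 13.7 and 14.6, against 2.22 and 2.18, and rose by 2.51 (adjusted p = 1.97e-07). Transcription factors that act through ISRE elements rose as well. IRF9 had 4.06 and 5.28 CPM in DOX, against 0.858 and 1.04 in untreated libraries, and rose by 2.14 (adjusted p = 1.06e-05). STAT2 rose by 0.90 (adjusted p = 1.92e-05) and IRF1 by 0.75 (adjusted p = 2.37e-05).

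**Figure D2:**
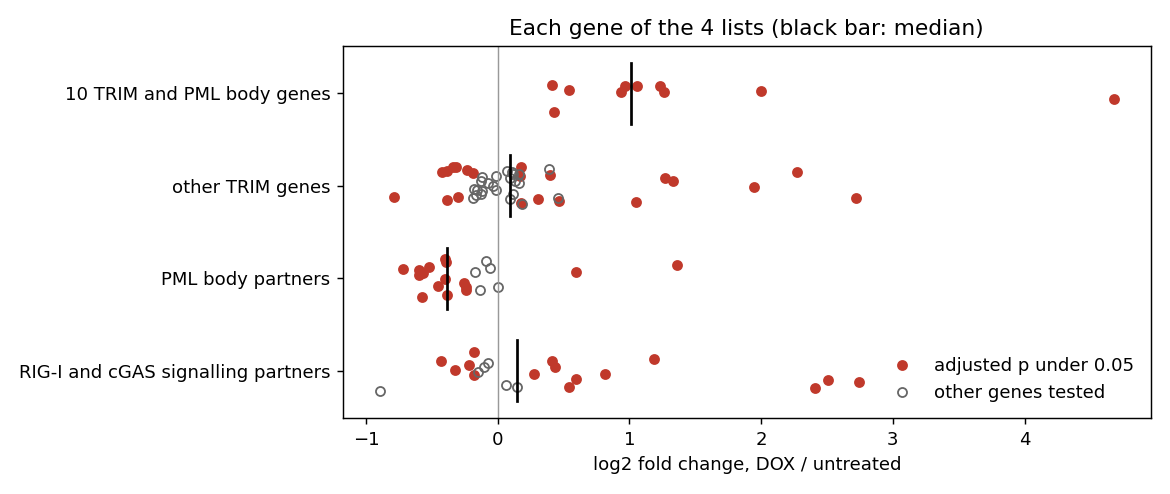
Log2 fold change of DOX over untreated for each tested gene of 4 lists, filled where the adjusted p was under 0.05, with a black bar at the median of each list. All 10 TRIM and PML body genes lie right of 0, whereas the other TRIM genes (median 0.089) fall on both sides and most PML body partners (median -0.39) lie left of 0.

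The genes also differed in how many barcodes they were seen in. Each barcode was thinned at random to 20000 UMIs so that depth was equal, and intervals are exact binomial at 95% and cover counting error only. SP100 was seen in 79.3% and 78.3% of DOX barcodes, against 52.7% and 54.8% of untreated barcodes. SP110 was seen in 49.0% (46.2 to 51.7) and 49.1% (46.1 to 52.1) of DOX barcodes, against 17.5% (16.2 to 18.8) and 17.8% (16.2 to 19.5) of untreated barcodes. For both genes the DOX intervals did not reach the untreated ones, and without thinning the order was kept, with SP110 in 82.4% and 83.2% of DOX barcodes, against 49.0% and 52.5%. TRIM22 was seen in 1.91% and 3.43% of thinned DOX barcodes, against 0.112% and 0.0468% of untreated barcodes. TRIM8 had the closest shares by ratio, 30.7% and 31.1% in DOX, against 24.2% and 25.4%. No cell type that should lack these genes was at hand to measure free RNA in the droplets, and its part in these shares was not tested.

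**Figure D3:**
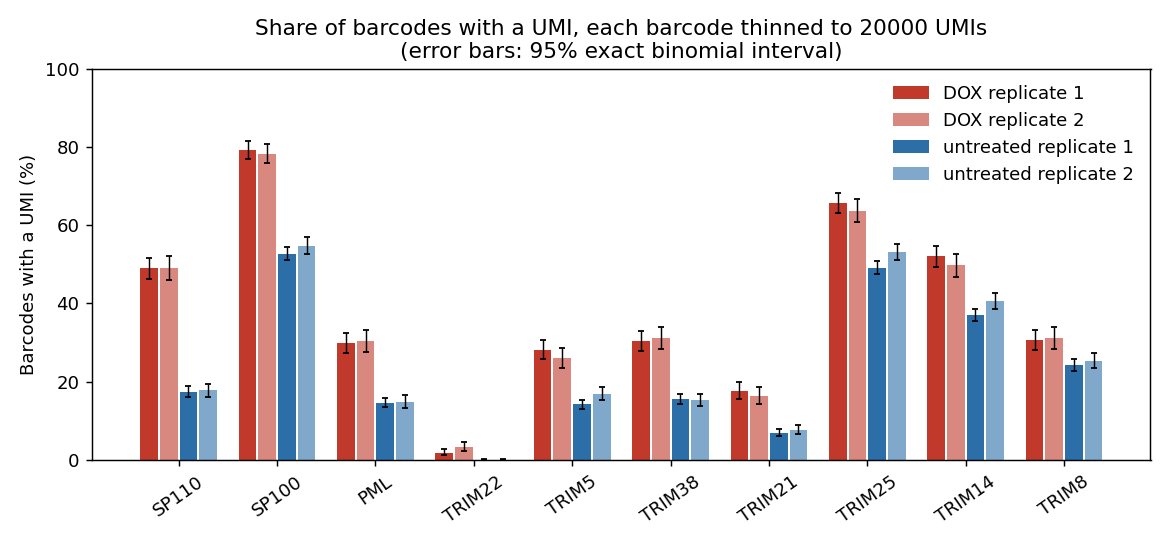
Percent of barcodes with at least 1 UMI of each gene after thinning every barcode to 20000 UMIs, with a bar for each library (DOX left, untreated right) and 95% exact binomial intervals for counting error. SP110 bars stand at 49.0% and 49.1% in DOX, against 17.5% and 17.8%, while TRIM8 bars stand at 30.7% and 31.1%, against 24.2% and 25.4%.

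The spread of the UMIs over barcodes was wider in DOX libraries for all 10 genes, and most for SP100 and SP110. The Fano factor, the variance over the mean of the thinned UMIs, is 1 where barcodes differ by counting noise alone. For SP100 it was 2.60 and 2.52 in DOX libraries, against 1.16 and 1.10 in untreated libraries. For SP110 it was 2.09 and 1.68, against 1.12 and 1.08. The other 8 genes had Fano factors of 1.11 to 1.43 in DOX libraries, against 0.999 to 1.22 in untreated libraries, and each gene's DOX values lay above its untreated values. In barcodes thinned to 10000 UMIs the values of TRIM5, TRIM21 and TRIM22 overlapped between the conditions. The Fano factor can grow with the level of a gene, and the part of the level in these values was not tested. It was not computed for other genes, so whether a wider spread in DOX libraries is particular to these 10 was not tested. Of the 10 genes, a thinned DOX barcode showed 3.84 and 3.79 on average, against 2.32 and 2.47 in untreated barcodes. At least 5 of them were seen in 32.5% and 31.2% of DOX barcodes, against 4.73% and 5.99% of untreated barcodes.

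Pairs of the 10 genes were weakly related across barcodes. The correlation of log2(thinned UMIs + 1) over 45 pairs had a median of 0.0717 and 0.0877 in DOX libraries, against 0.00624 and 0.00842 in untreated libraries. These values describe barcodes that share a library, and correlations this low in sparse counts are no finding. The highest pair was SP100 with SP110, at 0.268 and 0.252 over 1307 and 1080 DOX barcodes, against 0.00624 and 0.0308 over 3572 and 2137 untreated barcodes. Of 10594 genes compared, those most like SP110 in both DOX libraries included IFIT1 (0.345 and 0.286) and IFI6 (0.316 and 0.258). Those most like SP100 were DDX58 (0.296 and 0.297), PARP9 (0.246 and 0.257) and SAMD9 (0.237 and 0.264). For these 5 genes the values in untreated libraries did not exceed 0.07. No gene outside the 10 reached 0.2 in both DOX libraries with any of the other 8.

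To see with which state of the cells the 10 genes varied, barcodes were split within each library in 3 ways and the UMIs of each class were summed, giving 8 sums that were tested with library as a block. The first split called barcodes interferon-high where their share of UMIs from 39 interferon genes was above the median of their library, and interferon-low otherwise. None of the 39 is one of the 10. In DOX libraries 8 of the 10 genes were higher in interferon-high barcodes and none was lower at an adjusted p of 0.05, beside 16.3% higher and 11.8% lower over all genes. SP110 had 67.3 and 59.2 CPM in interferon-high barcodes of the DOX libraries, against 27.8 and 25.5 in interferon-low barcodes, a log2 difference of 1.33 (SE 0.0397, adjusted p = 2.07e-07). TRIM21 had 15.3 and 14.1, against 7.06 and 6.70 (1.18, SE 0.0631, adjusted p = 8.69e-06). SP100 had 138 and 133, against 85.1 and 83.2 (0.77, SE 0.0276, adjusted p = 6.21e-07). These 3 genes had the largest differences, and the 2 classes did not overlap for any of them. Nor did they overlap for TRIM14, TRIM38, PML, TRIM5 and TRIM25, and the share of all genes without overlap was not computed.

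TRIM14, TRIM38, PML, TRIM5 and TRIM25 followed with log2 differences of 0.58, 0.49, 0.47, 0.29 and 0.26 between the interferon classes of the DOX libraries. TRIM8 and TRIM22 did not pass. TRIM8 had 20.7 and 22.6 CPM in interferon-high barcodes, against 22.1 and 21.2 in interferon-low barcodes (0.08, 95% interval -0.05 to 0.21, adjusted p = 0.331), so the classes overlapped. TRIM22 had 1.36 and 1.94, against 1.45 and 1.17 (0.41, interval -0.40 to 1.21, adjusted p = 0.449). In untreated libraries the same split left 1 of the 10 genes higher, TRIM38, beside 0.953% of all genes, and 0.22% of all genes were lower. TRIM38 had 9.51 and 10.2 CPM in interferon-high barcodes of the untreated libraries, against 7.58 and 7.64 in interferon-low barcodes (0.36, SE 0.0488, adjusted p = 0.0136), and this call was lost without either untreated library (adjusted p = 0.518 and 0.647). None was lower there at an unadjusted p of 0.05, where 5 were higher. The median UMIs of the classes were close, 69549 and 84696 in interferon-high barcodes of the DOX libraries, against 76960 and 85190 in interferon-low barcodes.

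The second split used CDKN1A, the p53 target and cell cycle inhibitor, again split at the median of its share of UMIs in each library. In DOX libraries 8 of the 10 genes were higher in CDKN1A-high barcodes and 1 was lower, beside 26.6% and 30.7% of all genes. The widest differences were those of TRIM8 and TRIM22. TRIM8 had 27.3 and 27.8 CPM in CDKN1A-high barcodes of the DOX libraries, against 14.2 and 14.9 in CDKN1A-low barcodes, a log2 difference of 0.87 (SE 0.0511, adjusted p = 1.94e-07). The level in CDKN1A-low barcodes of DOX libraries was close to that of untreated cells, in which TRIM8 had 14.2 and 15.2 in CDKN1A-high barcodes, against 14.2 and 14.5 in CDKN1A-low barcodes (0.03, 95% interval -0.07 to 0.13, adjusted p = 0.789). TRIM22 had 2.03 and 2.60 CPM in CDKN1A-high barcodes of the DOX libraries, against 0.644 and 0.300 in CDKN1A-low barcodes. These were 116 and 145 UMIs, against 30 and 14, and the log2 difference was 2.25 (SE 0.333, adjusted p = 0.000195).

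TRIM38 differed by 0.50 between the CDKN1A classes of the DOX libraries (adjusted p = 1.4e-05), with 24.0 and 23.5 CPM in CDKN1A-high barcodes, against 16.2 and 16.4. TRIM21, TRIM5, PML, SP100 and TRIM25 differed by 0.31, 0.30, 0.28, 0.17 and 0.11. The TRIM5 call rested on DOX replicate 2, without which its difference was 0.08 (adjusted p = 0.362). The TRIM25 call was lost without the filter on low counts (adjusted p = 0.082), without DOX replicate 1 (adjusted p = 0.0915) and without untreated replicate 2 (adjusted p = 0.0544). TRIM14 went the other way, with 35.5 and 35.3 CPM in CDKN1A-high barcodes, against 41.6 and 41.5 in CDKN1A-low barcodes (-0.28, SE 0.0368, adjusted p = 8.07e-05). SP110, which had the largest difference between interferon classes, had 47.0 and 42.9 in CDKN1A-high barcodes, against 46.5 and 41.7 in CDKN1A-low barcodes (-0.02, interval -0.11 to 0.06, adjusted p = 0.653). In untreated libraries TRIM38 alone was higher, beside 3.58% of all genes higher and 3.49% lower (0.26, adjusted p = 0.0163), and this call was lost without either untreated library (adjusted p = 0.394 and 0.451). By edgeR at an unadjusted p of 0.05, 5 of the genes were higher in CDKN1A-high barcodes there and 1 was lower. CDKN1A-high barcodes of the DOX libraries were deeper, with medians of 82107 and 93642 UMIs, against 66542 and 78491. In counts thinned to 20000 UMIs, TRIM21 and TRIM25 no longer passed, with log2 differences of 0.323 and 0.125 that were no smaller (adjusted p = 0.0578 and 0.097), and the other 7 calls in DOX libraries were kept.

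**Figure D4:**
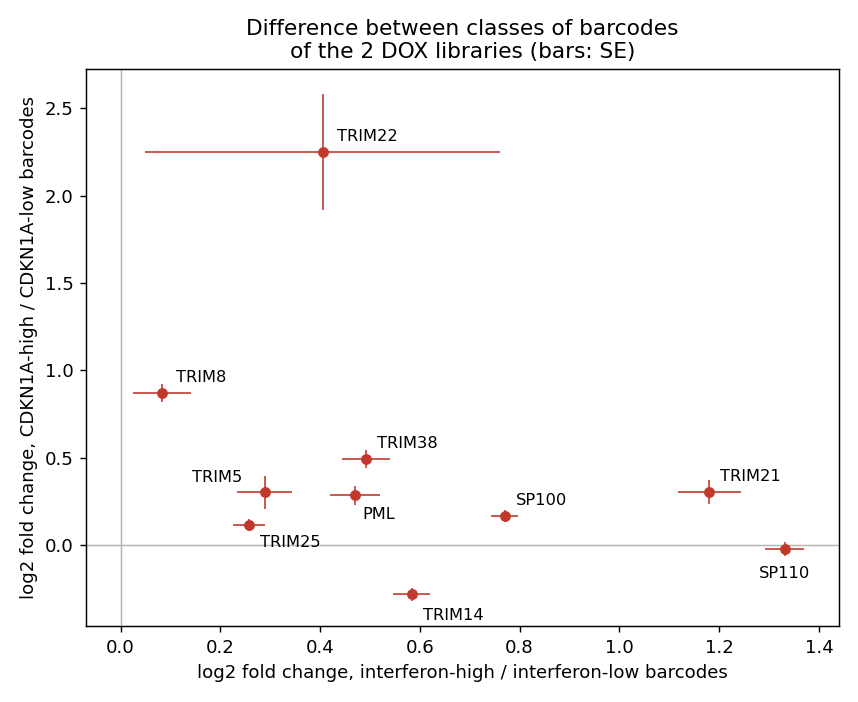
Log2 difference of each gene between interferon-high and interferon-low barcodes (x axis) and between CDKN1A-high and CDKN1A-low barcodes (y axis) of the DOX libraries, with bars for the SE. SP110 and TRIM21 lie far right (1.33 and 1.18), TRIM22 and TRIM8 lie high (2.25 and 0.87) with x values that did not pass the test, and TRIM14 lies below 0 on the y axis (-0.28).

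The third split took barcodes as cycling-high where the share of UMIs from 41 genes of S phase and G2/M was above the median of the untreated barcodes. Cycling-high barcodes were 20.7% and 19.2% of DOX barcodes, against 49.6% and 50.6% of untreated barcodes, whose shares near the middle follow from the way the limit was set. This class is a range of a score and not a cell type, since 252 and 211 DOX barcodes and 1614 and 968 untreated barcodes lay within 10% of the limit. In DOX libraries 3 of the 10 genes were higher in cycling-high barcodes and 2 were lower. These counts were close to the shares of all genes, 24.7% higher and 17.9% lower, and do not set the 10 genes apart. SP110 had 58.9 and 52.7 CPM in cycling-high barcodes, against 43.6 and 39.9 in cycling-low barcodes (0.50, SE 0.0414, adjusted p = 1.26e-06). TRIM21 and TRIM14 were higher by 0.47 (adjusted p = 0.000426) and 0.32 (adjusted p = 0.000198). All 3 were higher in the cycling-high class of both DOX libraries, and the share of all genes with this order was not computed.

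TRIM8 was lower in cycling-high DOX barcodes, with 15.4 and 14.1 CPM, against 23.0 and 23.8 in cycling-low barcodes (-0.58, SE 0.0703, adjusted p = 3.26e-05). TRIM22 was lower too, with 0.233 and 0.706, against 1.71 and 1.76 (-1.84, SE 0.359, adjusted p = 0.0013). This rested on 5 and 14 UMIs in the cycling-high class and was lost without DOX replicate 1 (-1.25, adjusted p = 0.0591) and in counts thinned to 20000 UMIs (-1.11, adjusted p = 0.174). TRIM5, TRIM25, TRIM38, PML and SP100 did not pass, with log2 differences between -0.04 and 0.10, although with library totals as the only scaling TRIM25 (-0.12) and SP100 (-0.11) passed as lower. In the untreated libraries none of the 10 genes passed in edgeR, where 7.6% of all genes were higher and 7.5% lower, and 2 of the 10 were lower at an unadjusted p of 0.05. Tested between the conditions, the log2 difference of high minus low barcodes was more positive in DOX libraries for 6 genes by interferon, for 3 by CDKN1A and for 4 by cell cycle RNA, beside 10.1%, 16.7% and 19.5% of all genes. It was more negative for 0, 1 (TRIM14) and 1 (TRIM8) genes, beside 5.18%, 25.6% and 9.33% of all genes. Each split called fewer of all genes in untreated than in DOX libraries, and the part of this in these differences was not tested.

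The rise in DOX was also measured within each class of barcodes, and the fits within interferon and CDKN1A classes were added after seeing the data. In interferon-low barcodes 9 of the 10 genes rose, beside 5334 of all 19763 genes tested there. TRIM14 did not pass in them (0.13, SE 0.0726, adjusted p = 0.155), whereas it rose by 0.75 in interferon-high barcodes (adjusted p = 9.78e-06). SP110 rose by 2.50 in interferon-high barcodes and by 1.33 in interferon-low barcodes, and TRIM21 by 1.70 and by 0.65. In CDKN1A-low barcodes TRIM8 did not pass, at -0.09 on the log2 scale (SE 0.073, adjusted p = 0.395), while it rose by 0.75 in CDKN1A-high barcodes (adjusted p = 7.4e-06). These classes were set within each library, so CDKN1A-low is not 1 level of CDKN1A, which was itself higher in DOX by 3.85 on the log2 scale in CDKN1A-low barcodes. Interferon-low is likewise not 1 level of the interferon genes. In interferon-low barcodes IRF9 and STAT2, which helped to set that split, were higher in DOX by 2.16 and 0.80. In cycling-high barcodes the log2 fold change of TRIM8 was 0.006 (SE 0.0935) and did not pass, and in cycling-low barcodes TRIM8 rose by 0.48 (adjusted p = 0.000204). The other 9 genes rose in both CDKN1A classes and in both cycling classes. Of all genes tested, 2963 of 18727 rose in CDKN1A-low barcodes and 6232 of 19984 in CDKN1A-high barcodes. In cycling-high barcodes 2151 of 18149 rose, and in cycling-low barcodes 5629 of 20187.

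**Figure D5:**
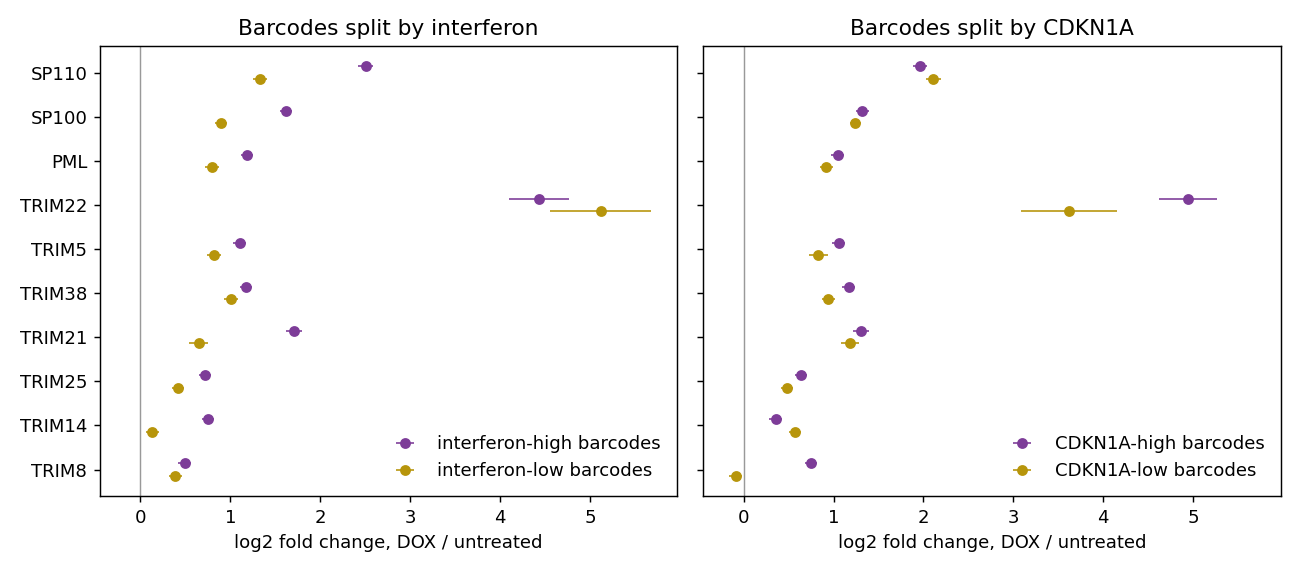
Log2 fold change of DOX over untreated, with SE bars, for each gene in the interferon-high and interferon-low barcodes (left) and in the CDKN1A-high and CDKN1A-low barcodes (right). The classes of SP110 lie at 2.50 and 1.33 in the left panel, and those of TRIM8 at 0.75 and -0.09 in the right panel, where the CDKN1A-low point lies near 0.

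Barcodes below 20000 UMIs with a mitochondrial share under 8%, which the levels above leave out, gave a second view of the genes without a test. There were 5277 and 4849 of them in DOX libraries, with medians of 1444 and 1229 UMIs, against 467 and 153 in untreated libraries, with medians of 4802 and 2230. In them SP100 had 95.01 and 82.33 CPM in DOX, against 54.3 and 53.2 in untreated libraries, and SP110 had 30.3 and 25.1, against 12.4 and 9.50. TRIM22 had 2.83 (exact Poisson interval 1.86 to 4.12) and 2.52 (1.54 to 3.89) in DOX, against 0 UMIs in both untreated libraries, with upper limits of 1.2 and 7.01. For 7 of the 10 genes both DOX libraries were above both untreated libraries, the exceptions being TRIM5, TRIM14 and TRIM25. For each of these 7 the interval of an untreated library overlapped that of a DOX library. The share of all genes with this order was not computed in these barcodes, and it was 53.9% in the deeper ones. TRIM25 and TRIM14 had the opposite order from that in the deeper barcodes. TRIM25 had 26.8 and 30.7 in DOX, against 48.1 and 39.9, and the interval of the smaller untreated library (24.7 to 61.0) overlapped those of DOX. TRIM14 had 17.7 and 22.2 in DOX, against 23.7 and 24.7, and the intervals of both untreated libraries (18.6 to 29.8 and 13.2 to 42.2) overlapped those of DOX. TRIM5 had 14.7 and 12.8 in DOX, against 8.45 and 20.9, where the last value rests on 11 UMIs.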

How the data were processed

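Whole-number UMI counts per gene and barcode were deposited for 4 single-cell libraries, 2 DOX and 2 untreated. The authors made them with Cell Ranger, version 7.2.0 in the file headers and 7.0.0 in the submitters' processing notes, on hg19, with 8000 barcodes forced in each DOX library. The deposited counts are not normalized. Whether reads in introns were counted is not given in the sources used here. The 6 bulk samples were not analysed here.

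Barcodes with at least 20000 UMIs and a mitochondrial share under 8% were kept, 8096 in all, of which 4 barcode sequences occurred in 2 libraries. No doublet caller was run and no free RNA was subtracted. An alternative added the upper limits of the study, 12000 genes and 150000 UMIs. UMIs were summed per library and tested with edgeR 4.0.16 in R 4.3.3 (TMM factors, filterByExpr, quasi-likelihood F test, Benjamini-Hochberg adjustment over all genes tested, threshold 0.05), and levels are CPM, UMIs per 1000000 kept UMIs of a library. Fold changes are relative to TMM factors of 0.912 to 1.07. Barcode classes gave 8 sums, fitted with library as a block. On counts simulated for 21563 genes, 67, 67 and 66 genes were changed by 1.5-, 2- and 4-fold. The test called 64.2%, 79.1% and 86.4% of them, and 8.93% of its calls were false. In the data 6077 genes rose and 5695 fell, so this false share need not hold there. Replicate libraries differed by more than sampling noise, with a chi-square per gene of 7.81 in DOX and 46.7 in untreated libraries. DESeq2 1.42.0, other factors, filters, limits, thinned counts, a replicate block and leaving out each library were the alternatives. Python 3.11.15 was used for thinning, shares and sequence matches. Intervals cover counting error only.

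The 10 genes and the lists of partners, cell cycle and interferon genes were chosen with earlier results of these data known. Of the lists, UHRF1 and PECAM1 did not match a symbol. The genes named were all 10 members, the 3 genes of each partner list and the 5 other TRIM genes with the smallest adjusted p, the factors STAT2, IRF9 and IRF1, checks of the treatment, and for each member the 3 most alike genes where r was at least 0.2 in both DOX libraries. One further gene that this rule names is not reported here. SP140 and the RIG-I and cGAS partners that fell were added to account for counts. Positions are from GENCODE v44 lifted to GRCh37, and the promoter runs were placed there by an exact match.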

Additional observations from a re-analysis of the deposited data

Results flagged for a closer look

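For each of the 10 genes, the difference between the classes of barcodes was compared between DOX and untreated libraries, as an interaction in edgeR's quasi-likelihood fit with Benjamini-Hochberg adjustment, and the results that passed are given here. All values are the log2 difference between high and low barcodes in DOX libraries minus that in untreated libraries. Each split called fewer of all genes in untreated than in DOX libraries, and the part of this in the values was not tested.

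Between interferon classes, 6 of the 10 genes had a more positive difference in DOX libraries than in untreated libraries and none a more negative one, beside 10.1% and 5.18% of all genes. The split itself called 0.953% of all genes higher and 0.22% lower in untreated libraries, against 16.3% and 11.8% in DOX libraries. The values were 1.14 for SP110 (adjusted p = 4.58e-05), 1.02 for TRIM21 (adjusted p = 0.000568), 0.70 for SP100 (adjusted p = 5.86e-05), 0.59 for TRIM14 (adjusted p = 0.000524), 0.35 for PML (adjusted p = 0.0114) and 0.26 for TRIM25 (adjusted p = 0.00605). The calls of PML and TRIM25 were lost without either untreated library and in counts thinned to 20000 UMIs.

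Between CDKN1A classes, 3 genes had a more positive difference in DOX libraries and TRIM14 a more negative, wider one, beside 16.7% and 25.6% of all genes. TRIM8 stood at 0.84 (adjusted p = 4.58e-06), TRIM38 at 0.24 (adjusted p = 0.0215), TRIM25 at 0.17 (adjusted p = 0.0152) and TRIM14 at -0.20 (adjusted p = 0.00717). The last 3 were lost without either untreated library and in thinned counts.

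Between cycling classes, 4 genes had a more positive difference in DOX libraries and TRIM8 a more negative, wider one, beside 19.5% and 9.33% of all genes. SP110 stood at 0.47 (adjusted p = 0.00013), TRIM21 at 0.41 (adjusted p = 0.013), TRIM14 at 0.27 (adjusted p = 0.00619), TRIM38 at 0.23 (adjusted p = 0.0394) and TRIM8 at -0.50 (adjusted p = 0.000945). Those of TRIM21, TRIM14 and TRIM38 were lost without either untreated library and without 1 or both of the DOX libraries left out in turn, in thinned counts and with library totals in place of TMM factors. The TRIM22 differences between classes did not pass in any of the 3 splits, where the untreated libraries held only 18 and 7 UMIs.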

How the results depend on the processing

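All 10 genes kept their rise in 20 or more of 22 alternatives each, TRIM8 and TRIM14 being the exceptions among barcode classes given above (TRIM8 at -0.086 in CDKN1A-low barcodes). Their log2 fold changes reached from 1.33 to 2.50 for SP110, from 0.89 to 1.62 for SP100, from 0.65 to 1.70 for TRIM21 and from 3.62 to 5.48 for TRIM22. With library totals in place of TMM factors the median of all genes shifted to 0.213 from 0.045, and 72.2% of calls were higher in DOX, against 51.6% with TMM and 40% with DESeq2.

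Counts over lists moved more. DESeq2 called 5 other TRIM genes and 4032 of all genes as higher. Library totals left 3 other TRIM genes, 1 RIG-I or cGAS partner and 3259 of all genes as lower. Without a filter on low counts 7 other TRIM genes rose, and in counts thinned to 20000 UMIs 7 rose and 1 RIG-I or cGAS partner fell. In cycling-high barcodes alone 4 other TRIM genes rose, and 2 of them, 4 PML body partners and 1 RIG-I or cGAS partner fell, with 2151 of all genes higher and 1857 lower. In CDKN1A-low barcodes, an alternative added after seeing the data, 3 other TRIM genes rose, and 5 of them, 9 PML body partners and 2 RIG-I or cGAS partners fell, with 2963 of all genes higher and 3219 lower. In interferon-high barcodes, also added, 3 RIG-I or cGAS partners fell. Leaving out each library in turn, 7 to 8 other TRIM genes rose and 2 to 8 RIG-I or cGAS partners fell.

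For the splits of barcodes, library totals gave 4 of the 10 genes lower in cycling-high DOX barcodes and 1 above and 2 below 0 for the difference between conditions. Thinned counts gave 1 lower and 1 above 0 for cycling, 0 higher in untreated CDKN1A classes, 1 above and 0 below 0 for the CDKN1A difference, and 0 higher in untreated interferon classes. Leaving out each library in turn gave 1 to 2 genes lower in cycling-high DOX barcodes, 0 to 1 lower in untreated ones and 1 to 3 above 0 for that difference. For CDKN1A classes it gave 0 to 4 higher and 0 to 1 lower in untreated libraries, 1 to 5 above 0 and 0 to 1 below 0 for the difference, and for untreated interferon classes 0 to 2 higher. With 1 library left in a condition, that library was assumed to vary like the others.

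Apart from TRIM8 in CDKN1A-low barcodes, the sign changed only for differences that had not passed. Between cycling classes of the DOX libraries these were TRIM5 (-0.03) and TRIM38 (-0.011) with library totals, SP100 (0.005) without the filter, TRIM25 (0.014) and TRIM38 (-0.076) in thinned counts, and TRIM5 (-0.065 to 0.148) and PML (-0.078 to 0.244) over the libraries left out. Between CDKN1A classes it was SP110 (0.028 with library totals, -0.036 to 0.011 over the libraries left out), and between interferon classes TRIM8 (-0.002 with library totals).

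Replicate numbers are shared between the conditions, but the labels tie them to no batch, and with 2 numbers the deviations of same-numbered libraries correlated at 0.181 over 9728 genes. With the replicate number as a block 10 of the 10 genes rose, 6370 of all genes rose and 5941 fell, and no call of a member changed. For TRIM22, 18 and 7 UMIs in untreated libraries limit every comparison within them.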
